A study of Mus musculus with 12 samples.

Results

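Chemokines and their receptors were followed in bulk RNA sequencing of 12 libraries labelled as monocytes from mouse meninges, the membranes that cover the brain. Members were all genes with a Ccl, Cxcl, Xcl, Ccr, Cxcr, Xcr or Ackr symbol and a number, plus Cx3cl1, leaving out 1 receptor and symbols marked -ps or os. The symbol rule used no measured value and gave 60 genes, of which 59 could be matched between the 2 kinds of file, out of 27575 matched genes in all. Of these 59 members 50 had at least 1 count, and 30 passed the filter on low counts together with 13944 genes of the whole table. These 30 were 22 ligands, 6 receptors and 2 atypical receptors. The animals were male C57BL/6J mice in 4 groups with 3 libraries each. Mice of the psilocybin, MDMA and vehicle groups went through 18 days of chronic restraint stress and then received psilocybin, MDMA or vehicle, with tissue taken 24 hours later. Psilocybin is converted in the body to psilocin, which activates serotonin receptors, and MDMA is a synthetic amphetamine that makes nerve terminals release serotonin. Mice of the unstressed group were labelled as controls without stress, and no vehicle is named for them. No source used here gives the doses. Nothing in the labels ties each library to its own animal. The p-values therefore cover the spread between these libraries, which may be technical.

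Chemokines are small secreted or membrane-tethered proteins that direct leukocytes along gradients by binding receptors coupled to inhibitory G proteins. Homeostatic ligands are made constantly by stromal, endothelial and epithelial cells, whereas inflammatory ligands are induced by infection, injury or cytokines. Atypical receptors bind chemokines without G protein signalling and remove or transport them. At the borders of the brain these signals act on monocytes, neutrophils and lymphocytes that move between blood, meninges and skull marrow.

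The libraries were checked for what they held. They contained between 807725 and 5136953 gene counts, so that 3 counts, the most that an observed 0 was taken to allow, were worth 0.584 to 3.71 CPM (counts scaled to library size) in a single library. Markers of monocytes were present, with summed levels of 8 classical monocyte markers of 237 to 615 CPM in psilocybin, 569 to 1410 CPM in MDMA, 242 to 653 CPM in vehicle and 487 to 562 CPM in unstressed libraries. Markers of choroid plexus epithelium, which secretes cerebrospinal fluid, were far more abundant, with sums over 8 genes of 12480 to 126255 CPM in the 12 libraries. Vehicle libraries 1 and 3 stood apart, with 10345 and 9524 genes detected, against 13463 genes in vehicle library 2 and at least 14318 in each library of the other groups. Unstressed libraries were counted with RefSeq genes and the others with Ensembl genes, so that stress and annotation cannot be told apart in any comparison with them. In bulk RNA, fewer cells of a type and less RNA per cell cannot be told apart either.

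Fewer members of the chemokine system were detected in vehicle libraries. At least 1 count was found for 44, 37 and 48 members in psilocybin libraries 1, 2 and 3, for 49, 38 and 47 in MDMA libraries, for 15, 29 and 16 in vehicle libraries and for 29, 47 and 36 in unstressed libraries. Over all 27575 matched genes, 17002, 16866 and 17734 were detected in psilocybin and 17926, 15343 and 17816 in MDMA libraries. Vehicle libraries had 10345, 13463 and 9524 genes and unstressed libraries 14318, 17512 and 15785, so vehicle libraries were low over all genes too. Vehicle library 2 had the smallest depth of all 12 and yet the most members within its group, equal to the lowest unstressed library. At a common depth of 807725 counts, the expected numbers were 36.1, 30.7 and 40.1 in psilocybin, 41.7, 30.8 and 37.1 in MDMA, 13.4, 29 and 12.5 in vehicle and 25.8, 37.4 and 27 in unstressed libraries. Psilocybin and MDMA libraries therefore lay above all 3 vehicle libraries at equal depth, whereas vehicle library 2 lay within the unstressed range. Counted over whole groups, 11 members were at 0 in all psilocybin libraries, 9 in all MDMA libraries, 25 in all vehicle libraries and 12 in all unstressed libraries. The share of all matched genes at 0 over a group was not computed, so these numbers describe the libraries and not the members in particular. An observed 0 over a group allows up to 3 counts, or 0.298, 0.259, 0.47 and 0.262 CPM in the psilocybin, MDMA, vehicle and unstressed groups.

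**Figure D1:**
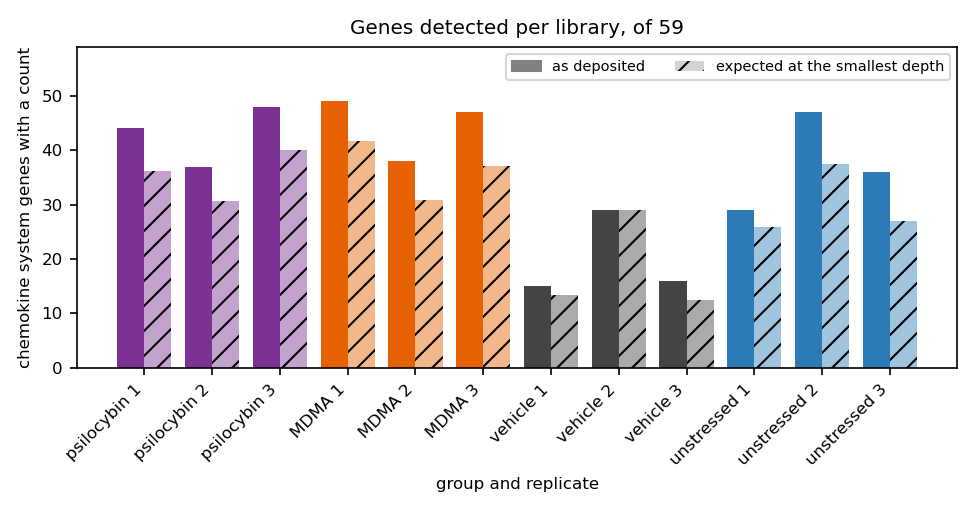
Chemokine system genes with at least 1 count in each library (solid bars) and the number expected at the smallest depth of 807725 counts (hatched bars), of 59 members. Vehicle libraries 1 and 3 had 15 and 16 members, the fewest of the 12 libraries.

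Receptors showed the same gap, with 14, 11 and 15 of 17 detected in psilocybin, 15, 9 and 14 in MDMA, 2, 7 and 2 in vehicle and 7, 15 and 9 in unstressed libraries. Summed over the 17 receptors, levels were 47.7, 33.4 and 88 CPM in psilocybin libraries, 84.1, 100 and 101 CPM in MDMA libraries, 5.79, 22.3 and 3.07 CPM in vehicle libraries and 86.8, 49.9 and 42 CPM in unstressed libraries. Each vehicle library lay below every library of the other groups. Ligands did not separate the groups in this way, with sums of 712, 428 and 903 CPM in psilocybin, 1008, 665 and 1308 CPM in MDMA, 398, 747 and 1051 CPM in vehicle and 512, 747 and 667 CPM in unstressed libraries. Cxcl12 alone made up between 36.3% and 76.8% of the members' counts in each library. Without it, ligand sums averaged 267 ± 91.7 CPM in psilocybin, 378 ± 83.2 CPM in MDMA, 251 ± 29.7 CPM in vehicle and 206 ± 69.6 CPM in unstressed libraries (SD, n = 3 each). No test was made of these sums.

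**Figure D2:**
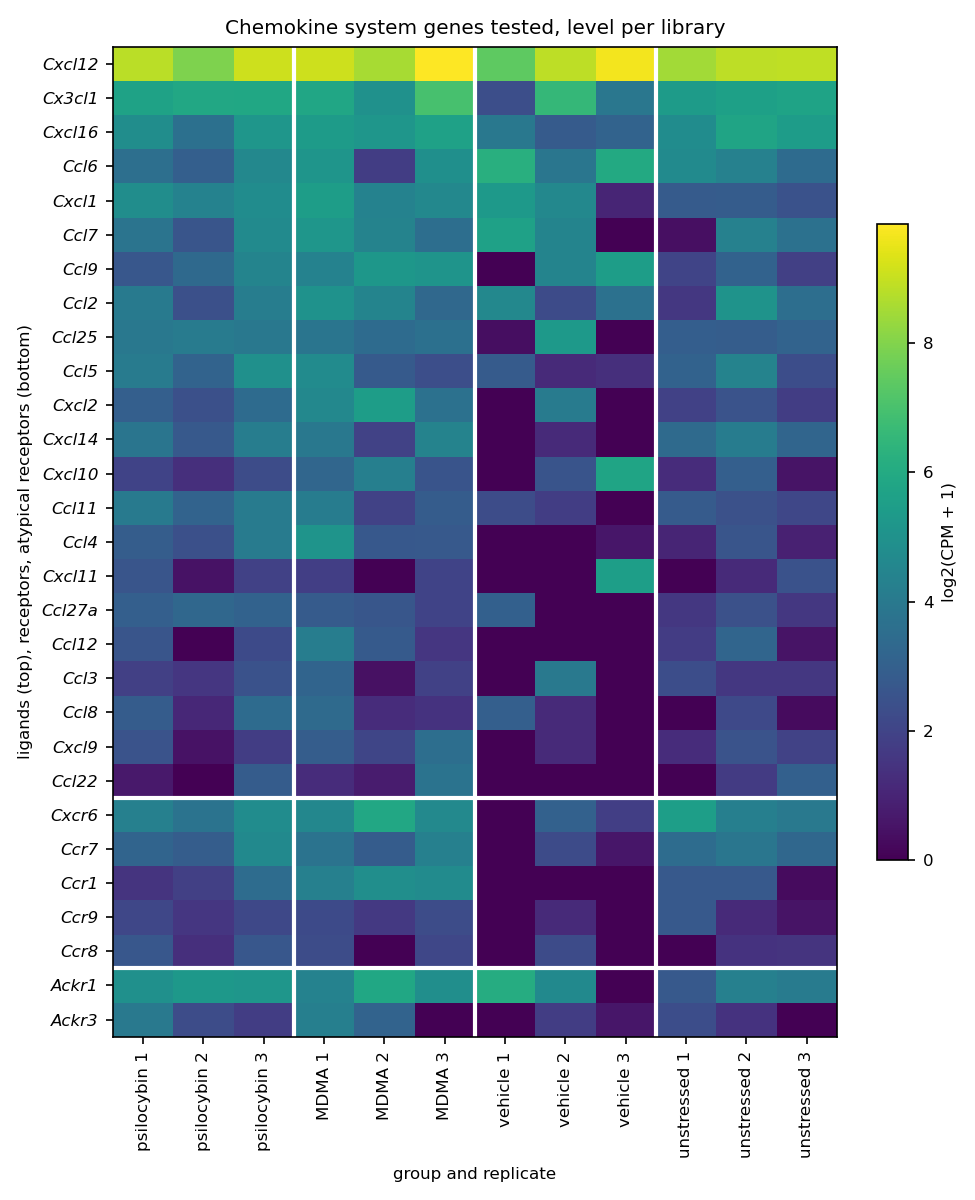
Level of 29 members that passed the count filter in each library, as log2(CPM + 1), with ligands above, receptors in the middle and atypical receptors below. Vehicle libraries 1 and 3 show many genes at 0 beside a few that are high, and Cxcl12 is the brightest row in every library.

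Homeostatic ligands were led by Cxcl12, which holds haematopoietic cells in their niches through Cxcr4 and is made by stromal and endothelial cells. Its gene lies on chromosome 6 (GRCm38, 117168535 to 117181367, plus strand). Cxcl12 had 450, 249 and 541 CPM in psilocybin libraries, 550, 373 and 923 CPM in MDMA libraries, 171, 463 and 810 CPM in vehicle libraries and 362, 462 and 485 CPM in unstressed libraries. All 4 groups overlapped, and vehicle libraries spanned nearly the whole range. Per kilobase of exon Cxcl12 was also the most abundant member in every group, with 50.6 CPM per kb in psilocybin, 75.3 in MDMA, 58.9 in vehicle and 60.9 in unstressed libraries. Within the vehicle group its order across libraries was that of the fibroblast markers (Col1a1, Dcn and 5 others), whose sums were 699, 2570 and 5642 CPM in vehicle libraries 1, 2 and 3. In psilocybin libraries 1, 2 and 3 the fibroblast sums were 3565, 1858 and 3842 CPM, again in the order of Cxcl12. The orders differed in MDMA libraries, with sums of 6382, 8775 and 13283 CPM. They also differed in unstressed libraries, with sums of 3773, 6499 and 4670 CPM. None of the 7 markers was at 0 throughout any group, and their part in the Cxcl12 levels was not tested.

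Cx3cl1, or fractalkine, is a membrane-tethered ligand of Cx3cr1. It had 50.6, 59.2 and 56.9 CPM in psilocybin, 55.5, 30.4 and 126 CPM in MDMA, 4.14, 92.9 and 13.8 CPM in vehicle and 41.7, 47.1 and 51.1 CPM in unstressed libraries. Psilocybin and unstressed libraries were tight, while vehicle libraries held values below and above both. Cxcl16, a membrane-bound ligand of Cxcr6, had 27.2, 11.5 and 34.8 CPM in psilocybin, 41.2, 35.3 and 48.7 CPM in MDMA, 14.6, 6.19 and 7.68 CPM in vehicle and 26.4, 52.9 and 42 CPM in unstressed libraries. All 3 vehicle libraries lay below all MDMA and unstressed libraries, and overlapped with psilocybin library 2. The fitted difference was a log2 value of 1.86 ± 0.78 for MDMA against vehicle and -1.86 ± 0.78 for vehicle against unstressed (SE), with an unadjusted p of 0.0319 and an adjusted p of 0.216 for the second, by edgeR's quasi-likelihood test.

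Cxcl14, a homeostatic ligand of epithelial and stromal cells, was nearly missing from vehicle libraries. Its counts were 45, 15 and 70 in psilocybin, 52, 8 and 103 in MDMA, 0, 1 and 0 in vehicle and 28, 67 and 37 in unstressed libraries. No vehicle library reached the lowest library of any other group. The ratio of pooled counts was 71.8 for psilocybin over vehicle (95% exact counting interval 12.7 to 2856), 74.2 for MDMA over vehicle (13.1 to 2947) and 63.7 for unstressed over vehicle (11.2 to 2535). Intervals of this kind cover counting error only, since reads amplified by PCR are not independent molecules. Adjusted p-values from edgeR were 0.103, 0.0859 and 0.0619 for these comparisons, so none passed 0.05. DESeq2 and limma voom called Cxcl14 in all 3 comparisons, and so did edgeR without vehicle library 2, the only vehicle library with a Cxcl14 read. Without that library, 24.5%, 25% and 25.3% of all tested genes passed in these comparisons. No other alternative called Cxcl14, so it passed in 3 of 16 alternatives for psilocybin against vehicle. It passed in 3 of 15 for MDMA against vehicle and in 3 of 15 for vehicle against unstressed. Cxcl14 (GRCm38, chromosome 13, 56288643 to 56296551, minus strand) has 1827 exonic bases of its own in Ensembl and 2466 in RefSeq.

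Among the other homeostatic ligands, Ccl25, which draws T cells through Ccr9, had 14.5, 16.1 and 14.5 CPM in psilocybin, 13.2, 9.79 and 11.5 CPM in MDMA, 0.276, 38.4 and 0 CPM in vehicle and 6.78, 6.49 and 7.77 CPM in unstressed libraries. Psilocybin lay above MDMA and both above unstressed libraries without overlap, but Ensembl gives Ccl25 7241 exonic bases of its own and RefSeq 1383. Ccl27a, a skin-associated ligand of Ccr10, had 6.81, 8.84 and 7.6 CPM in psilocybin, 6.17, 5.25 and 2.92 CPM in MDMA, 7.17, 0 and 0 CPM in vehicle and 2.03, 4.49 and 2 CPM in unstressed libraries. Here too psilocybin libraries lay above all MDMA and unstressed libraries, and vehicle library 1 fell among them. Ccl27a has 2369 exonic bases of its own in Ensembl and 1548 in RefSeq. Cxcl13, which organises B cell follicles through Cxcr5, did not pass the filter. It had 2.07, 0 and 2.45 CPM in psilocybin, 1.68, 13.3 and 2.73 CPM in MDMA, 0, 16.1 and 0.512 CPM in vehicle and 0, 1.5 and 0.444 CPM in unstressed libraries.

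Ligands of neutrophils, Cxcl1 and Cxcl2, act on Cxcr2 and lie beside each other on chromosome 5. Cxcl1 had 27.2, 19.6 and 27 CPM in psilocybin, 43.5, 19.9 and 23.2 CPM in MDMA, 38.9, 23.5 and 1.02 CPM in vehicle and 6.1, 6.24 and 4.66 CPM in unstressed libraries. Apart from vehicle library 3, which held 2 reads, all libraries of stressed mice lay above all unstressed libraries. Cxcl2 had 6.81, 4.23 and 9.81 CPM in psilocybin, 23, 43.7 and 11.9 CPM in MDMA, 0, 16.1 and 0 CPM in vehicle and 2.71, 4.74 and 2.44 CPM in unstressed libraries. MDMA libraries lay above all psilocybin and unstressed libraries, and vehicle library 2 lay within the MDMA range. Fitted differences were 2.13 ± 1.0 for Cxcl1 in psilocybin against unstressed (adjusted p 0.791) and 2.28 ± 1.01 in MDMA against unstressed (adjusted p 0.925), as log2 values with SE by edgeR. With Cxcl1 counted over 1875 exonic bases of its own in Ensembl and 955 in RefSeq, and Cxcl2 over 2068 and 1083, the gap to unstressed libraries cannot be told apart from annotation. Over 14 alternative settings each, the adjusted p of Cxcl1 ranged from 0.00932 to 1 for psilocybin and from 0.0115 to 1 for MDMA against unstressed.

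The promoters of these genes are shown because Cxcl1 and Cxcl2 were counted in every psilocybin, MDMA and unstressed library while Cxcl3, of the same cluster, had no count in any library. Each stretch is the 120 bases before the RefSeq start site in GRCm38.p6. Capitals mark matches to GGAATTTCC on either strand (GGAAATTCC on the minus strand), a kappaB site of the kind bound by NF-kappaB in many inflammatory genes. The windows are chr5:90891125-90891244, chr5:90903779-90903898 and chr5:90785981-90786100, all on the plus strand.
Cxcl1: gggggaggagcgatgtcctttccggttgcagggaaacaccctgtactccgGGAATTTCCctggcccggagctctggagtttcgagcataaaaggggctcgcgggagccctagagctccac
Cxcl2: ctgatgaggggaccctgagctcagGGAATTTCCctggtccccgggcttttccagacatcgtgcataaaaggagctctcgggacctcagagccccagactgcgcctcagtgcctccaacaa
Cxcl3: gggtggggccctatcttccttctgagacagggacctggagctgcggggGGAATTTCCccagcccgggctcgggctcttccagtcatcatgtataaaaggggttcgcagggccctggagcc
The motif was found in the 250 bases upstream of 5 of the 44 members with a promoter entry, namely Cxcl1, Cxcl2, Cxcl3, Cxcl10 and Ccr3, against 0.344% of 27025 genes. A match of letters is a description only, and Cxcl3 carried one with no count in any library.

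Cxcl5, another ligand of the same cluster, had at most 6 counts in any library. Cxcr2, the receptor for these ligands on neutrophils, had at most 7. The sum of 9 neutrophil markers was 96.2, 160 and 964 CPM in psilocybin, 2452, 532 and 1706 CPM in MDMA, 121, 184 and 98.8 CPM in vehicle and 40, 51.1 and 27.5 CPM in unstressed libraries. Retnlg, Mmp8 and Ly6g were at 0 in all vehicle libraries, and none of the 9 was at 0 throughout another group. Ly6g had at most 3 reads in any library. S100a9 was higher in vehicle, at 9.38, 14.9 and 9.72 CPM, than in unstressed libraries, at 0.339, 0.748 and 1.11 CPM. S100a8, Ngp, Camp, Ltf and Csf3r overlapped between these groups. The sum of the 9 markers was highest on average in MDMA, the group with the most Cxcl2. MDMA library 2, with the most Cxcl2 of all libraries, had the lowest sum of its group. Their part in the Cxcl2 levels was not tested.

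Interferon-induced ligands of Cxcr3, which attract activated T and natural killer cells, were dominated by a single vehicle library. Cxcl10 had 2.96, 1.54 and 3.92 CPM in psilocybin, 8.41, 18.2 and 4.87 CPM in MDMA, 0, 4.95 and 52.7 CPM in vehicle and 1.36, 6.98 and 0.444 CPM in unstressed libraries. Cxcl11 had 5.03, 0.384 and 2.7 CPM in psilocybin, 2.52, 0 and 2.92 CPM in MDMA, 0, 0 and 45.5 CPM in vehicle and 0, 1.25 and 4.66 CPM in unstressed libraries. GENCODE vM21 types Cxcl11 as a polymorphic pseudogene, so its reads need not mean a working ligand. Vehicle library 3 held 103 Cxcl10 and 89 Cxcl11 reads, more than any other library, yet no read of Cxcl9, the ligand encoded beside them. Cxcl9 had 4.74, 0.384 and 2.45 CPM in psilocybin, 6.45, 3.15 and 10.9 CPM in MDMA, 0, 1.24 and 0 CPM in vehicle and 1.36, 4.74 and 2.89 CPM in unstressed libraries. Vehicle libraries lay below MDMA and unstressed libraries in Cxcl9 and were scattered in the other 2 ligands. Without overlap, MDMA libraries were above psilocybin libraries in Cxcl10, with a fitted difference of -1.89 ± 1.57 for psilocybin against MDMA (edgeR, adjusted p 1).

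The promoter of Cxcl10 is shown for its match to GAAANNGAA, the start of the interferon-stimulated response element, in capitals. The stretch covers bases 230 to 111 before its RefSeq start (GRCm38.p6, chr5:92349000-92349119, minus strand).
Cxcl10: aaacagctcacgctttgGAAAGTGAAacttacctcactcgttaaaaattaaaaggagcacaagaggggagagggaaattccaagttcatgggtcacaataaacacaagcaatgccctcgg
On either strand (TTCNNTTTC on the minus strand), the 250 bases upstream of 7 of 44 members held this motif, among them Cxcl9, Cxcl10, Cxcl14 and Ccl19, against 8.18% of 27025 genes.

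**Figure D3:**
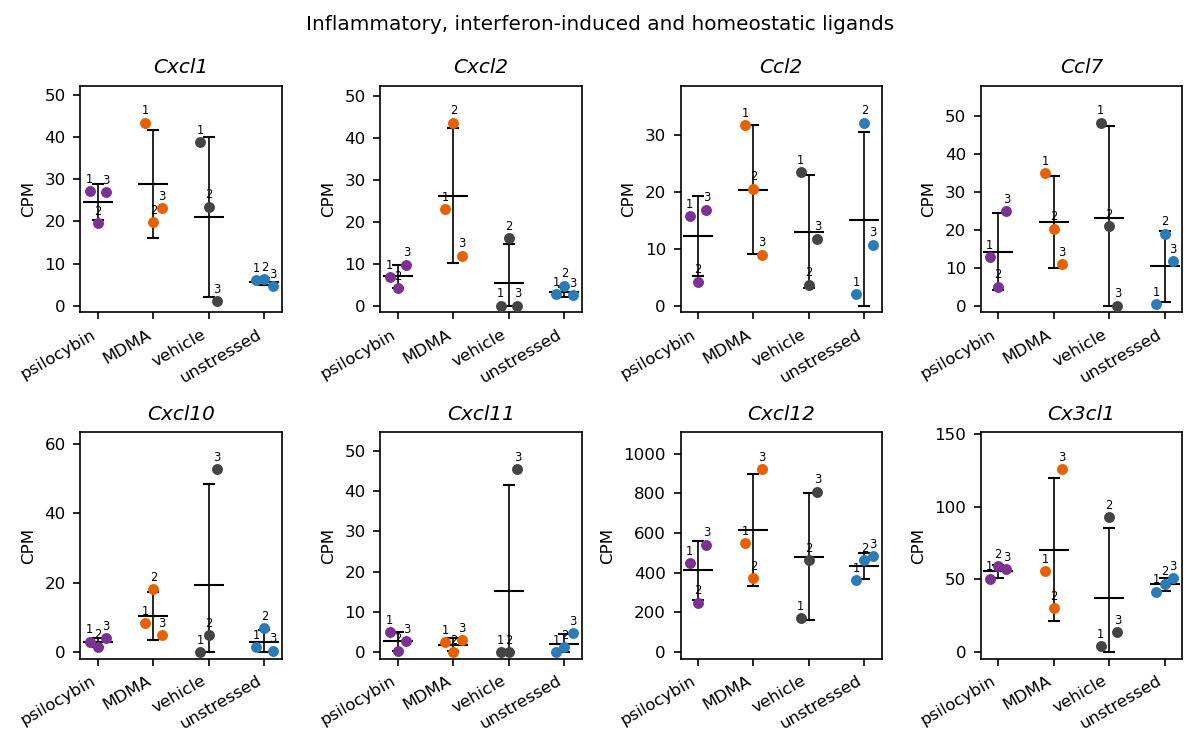
CPM of 8 ligands in each library (points, numbered by replicate) by group, with the mean (dash) and SD (bars, stopped at 0) of 3 libraries. Vehicle libraries spread most, with Cxcl10 at 52.7 CPM in vehicle library 3 and 0 in vehicle library 1, while Cxcl1 in unstressed libraries lay between 4.66 and 6.24 CPM.

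CC ligands that recruit monocytes are encoded in a row on chromosome 11. Ccl2 had 15.7, 4.23 and 16.9 CPM in psilocybin, 31.7, 20.6 and 8.95 CPM in MDMA, 23.5, 3.71 and 11.8 CPM in vehicle and 2.03, 32.2 and 10.7 CPM in unstressed libraries. Ccl7 had 12.7, 5 and 25 CPM in psilocybin, 35, 20.3 and 10.9 CPM in MDMA, 48.3, 21 and 0 CPM in vehicle and 0.339, 19 and 11.8 CPM in unstressed libraries. For both genes the groups overlapped, and unstressed library 1 was low and unstressed library 2 high. Ccl8 was less abundant, with 6.22, 1.15 and 9.81 CPM in psilocybin, 9.53, 1.4 and 1.75 CPM in MDMA, 6.9, 1.24 and 0 CPM in vehicle and 0, 3.49 and 0.222 CPM in unstressed libraries, again overlapping. Ccl12, their mouse relative, had 5.03, 0 and 3.68 CPM in psilocybin, 17.1, 5.95 and 1.95 CPM in MDMA, 0 CPM in all 3 vehicle libraries and 2.37, 8.23 and 0.444 CPM in unstressed libraries. Against the floor of 3 counts over the vehicle group, Ccl12 was at least 13.3-fold higher in MDMA, at least 5.89-fold higher in psilocybin and at least 6.76-fold higher in unstressed libraries, while adjusted p-values from edgeR were 0.12, 0.22 and 0.164. The bound for MDMA was 6 without MDMA library 1 and 22.2 without MDMA library 3, and that for unstressed libraries 2.27 without unstressed library 2 and 10.4 without unstressed library 3.

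Other CC ligands of monocytes and T cells did not behave as one group. Ccl4 had counts of 22, 11 and 66 in psilocybin, 120, 16 and 29 in MDMA, 0, 0 and 1 in vehicle and 3, 20 and 4 in unstressed libraries. Vehicle lay below the other 3 groups and MDMA above unstressed. Pooled counts gave a ratio of 54.7 for psilocybin over vehicle (95% exact interval 9.59 to 2180) and 75.1 for MDMA over vehicle (13.3 to 2983), with adjusted p-values of 0.134 and 0.0871 by edgeR. The first ratio was 31.6 without psilocybin library 3, and the second 30 without MDMA library 1 and 116 without MDMA library 3. Ccl5, a ligand of Ccr1 made by T cells and platelets, had 16, 7.69 and 29.4 CPM in psilocybin, 25.8, 5.95 and 4.09 CPM in MDMA, 6.07, 1.24 and 1.54 CPM in vehicle and 7.46, 20 and 4 CPM in unstressed libraries. All psilocybin libraries exceeded all vehicle libraries in Ccl5, and the other pairs of groups overlapped. Ccl3, another ligand of Ccr1, had 2.66, 1.92 and 4.66 CPM in psilocybin, 8.13, 0.35 and 2.73 CPM in MDMA, 0, 14.9 and 0 CPM in vehicle and 4.07, 2 and 2 CPM in unstressed libraries. Its vehicle libraries again held the highest and the lowest values.

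Ccl6 and Ccl9, rodent ligands of Ccr1, were among the few members with high values in vehicle libraries 1 or 3. Ccl6 had 11.2, 6.92 and 23.5 CPM in psilocybin, 34.2, 2.45 and 28.8 CPM in MDMA, 73.1, 13.6 and 61.9 CPM in vehicle and 25.4, 19 and 9.77 CPM in unstressed libraries. Ccl9 had 5.33, 9.22 and 20.8 CPM in psilocybin, 19.9, 36 and 33.3 CPM in MDMA, 0, 21 and 43.5 CPM in vehicle and 3.05, 7.48 and 2.66 CPM in unstressed libraries. Vehicle libraries 1 and 3 were the highest of all 12 in Ccl6, whereas for Ccl9 vehicle library 1 was the only library at 0. MDMA lay above unstressed libraries in Ccl9, with a fitted log2 difference of 2.74 ± 1.38 and an adjusted p of 0.999 by edgeR. Ccl11, or eotaxin, the ligand of Ccr3, had 15.1, 7.69 and 16.2 CPM in psilocybin, 16.8, 2.8 and 6.23 CPM in MDMA, 3.86, 2.48 and 0 CPM in vehicle and 6.1, 4.49 and 3.33 CPM in unstressed libraries. Psilocybin libraries lay above all vehicle and unstressed libraries in Ccl11. Ccl22, a ligand of Ccr4, had counts of 2, 0 and 26 in psilocybin, 5, 2 and 64 in MDMA, 0, 0 and 0 in vehicle and 0, 9 and 32 in unstressed libraries. Its highest values came from library 3 of the psilocybin, MDMA and unstressed groups, and it was at least 10.8-fold higher in MDMA than in vehicle against the floor, but at least 1.99-fold without MDMA library 3.

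This alternation of high and zero values within the vehicle group was counted over all tested members. Of 30 members 8 had their highest library in the vehicle group, or 26.7%, against 40.5% of all 13944 tested genes. Of those 8 members 7 were at 0 in another vehicle library, which was 23.3% of the 30, against 14.9% of all tested genes. At least 1 vehicle library was at 0 for 23 members, or 76.7% against 47% of all tested genes, and at least 1 library of another group for 6 members, or 20% against 10.9%. Low counts favour zeros, so these shares describe the libraries and no test was made of them.

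Several receptors were low in all vehicle libraries. Ccr1, a receptor of monocytes and neutrophils for Ccl3, Ccl5, Ccl6 and Ccl9, lies on chromosome 9 (GRCm38, 123962124 to 123968692, minus strand) with nearly the same exons in both annotations. Its counts were 6, 7 and 42 in psilocybin, 67, 81 and 132 in MDMA, 0, 0 and 0 in vehicle and 17, 23 and 1 in unstressed libraries. MDMA libraries lay above all others at 18.8, 28.3 and 25.7 CPM, and no library of another group exceeded the 10.3 CPM of psilocybin library 3. Against the floor, Ccr1 was at least 42.5-fold higher in MDMA than in vehicle, at least 10.1-fold higher in psilocybin than in vehicle and at least 6.6-fold lower in vehicle than in unstressed libraries. For psilocybin the bound was 4.15 without psilocybin library 3. That for vehicle against unstressed was 5.2, 4.55 and 10.4 without unstressed library 1, 2 and 3 in turn. Fitted differences were 2.63 ± 1.23 for MDMA against unstressed and -2.28 ± 1.21 for psilocybin against MDMA. No comparison passed with edgeR, with adjusted p-values of 0.0599 for MDMA against vehicle, 0.128 for psilocybin against vehicle, 0.097 for vehicle against unstressed, 0.999 for MDMA against unstressed and 1 for psilocybin against MDMA. For MDMA against vehicle, 4 of 17 alternatives called Ccr1, and its adjusted p ranged from 0.000262 to 0.845. Classical monocyte sums were 237, 250 and 615 CPM in psilocybin, 954, 569 and 1410 CPM in MDMA, 242, 391 and 653 CPM in vehicle and 487, 512 and 562 CPM in unstressed libraries. These sums and the neutrophil sums given above were highest in MDMA on average, but MDMA library 2, with the most Ccr1 per library size, had the lowest of both within its group. Their part in Ccr1 was not tested.

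Ccr7 guides dendritic cells and lymphocytes towards Ccl19 and Ccl21 in lymphatic vessels. It had 7.99, 6.53 and 24.5 CPM in psilocybin, 12.3, 6.29 and 18.7 CPM in MDMA, 0, 3.71 and 0.512 CPM in vehicle and 10.2, 13.5 and 8.66 CPM in unstressed libraries. All vehicle libraries lay below all others, with fitted differences of 3.49 ± 1.31 for psilocybin and 3.35 ± 1.30 for MDMA against vehicle and adjusted p-values of 0.201 and 0.197 by edgeR. Sums of 6 dendritic cell markers were 43.8 to 89.2 CPM in psilocybin, 72.4 to 105 CPM in MDMA, 0.552 to 116 CPM in vehicle and 97.3 to 273 CPM in unstressed libraries. Xcr1 and Clec9a, which define cross-presenting dendritic cells, were at 0 in all vehicle libraries. Both were at 0 in unstressed library 1 too, and Xcr1 had at most 13 counts in any library. In vehicle libraries 1, 2 and 3 Zbtb46 was at 0, 24.8 and 116 CPM and Cd209a at 0.552, 8.67 and 0 CPM. Flt3 was at 0, 0 and 0.512 CPM there and Siglech at 0, 3.71 and 0 CPM. The part of dendritic cells in Ccr7 was not tested.

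Cxcr6, a receptor of tissue-resident T and natural killer cells for Cxcl16, was the most abundant receptor per kilobase of exon in every group, at 9.91 CPM per kb in psilocybin, 18.3 in MDMA, 1.72 in vehicle and 13.8 in unstressed libraries. It had 18.6, 12.3 and 26.5 CPM in psilocybin, 22.4, 59.5 and 24.1 CPM in MDMA, 0, 7.43 and 2.56 CPM in vehicle and 45.4, 18.2 and 14.9 CPM in unstressed libraries. Vehicle libraries again lay below every other library. The fitted log2 difference was 3.47 ± 1.25 for MDMA and 2.58 ± 1.21 for psilocybin against vehicle, and -3.02 ± 1.23 for vehicle against unstressed, with an adjusted p of 0.164 for MDMA and 0.199 for vehicle against unstressed. Sums of 7 T and natural killer cell markers were 18.4 to 69.6 CPM in psilocybin, 40.5 to 84.6 CPM in MDMA, 43.3 to 104 CPM in vehicle and 28.2 to 91.2 CPM in unstressed libraries, with Ncr1 at 0 in the vehicle group. In vehicle libraries 1, 2 and 3 the markers were uneven, with Gzma at 45.3, 4.95 and 0 CPM, Cd3d at 0, 7.43 and 56.8 CPM and Klrd1 at 1.38, 0 and 0 CPM. The part of these cells in Cxcr6 was not tested. The ligand and its receptor were thus both lowest on average in vehicle libraries, at 9.5 ± 4.5 CPM for Cxcl16 and 3.33 ± 3.77 CPM for Cxcr6 (SD, n = 3).

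**Figure D4:**
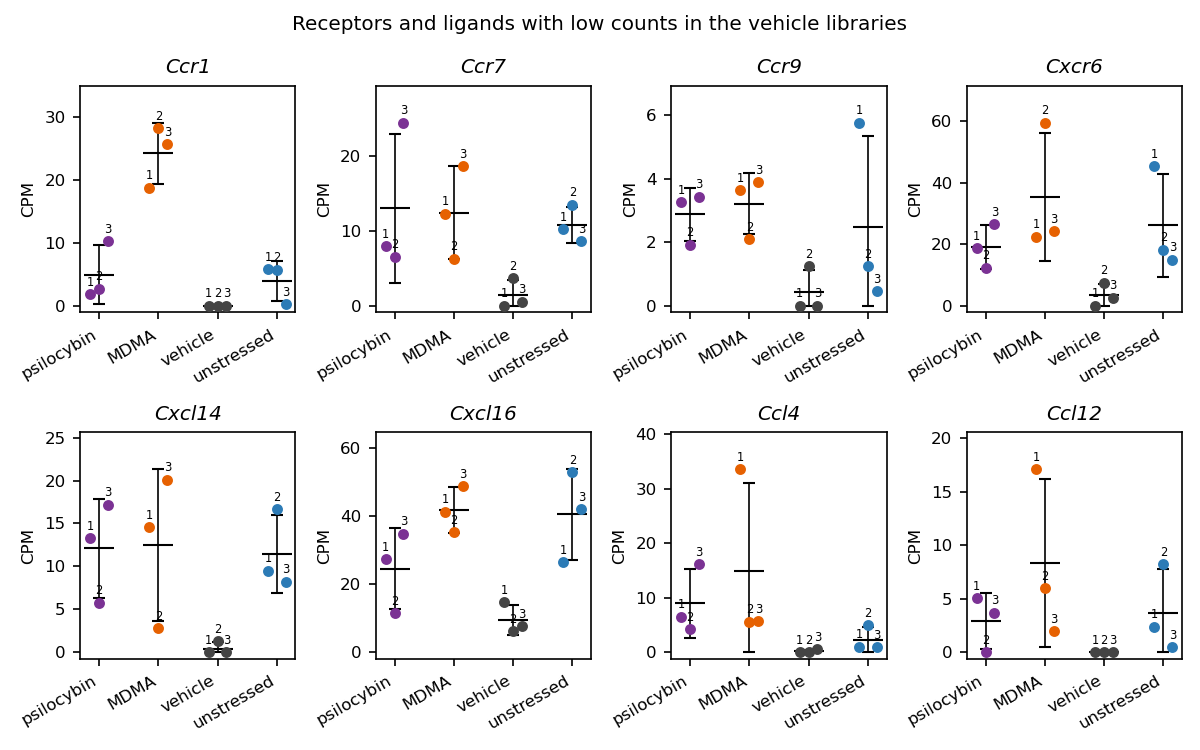
CPM of 4 receptors (top) and 4 ligands (bottom) in each library (points, numbered by replicate) by group, with the mean (dash) and SD (bars, stopped at 0) of 3 libraries. Vehicle libraries lay at or near 0 in Ccr1, Ccl4, Cxcl14 and Ccl12, and Ccr1 was highest in the 3 MDMA libraries.

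Ccr8 and Ccr9 passed the filter with a mean below 5 CPM in every group, and 11 receptors did not pass. Ccr8, a receptor of regulatory T cells, had 5.33, 1.54 and 5.39 CPM in psilocybin, 3.92, 0 and 3.31 CPM in MDMA, 0, 3.71 and 0 CPM in vehicle and 0, 1.75 and 1.78 CPM in unstressed libraries. Ccr9, the receptor for Ccl25, had 3.26, 1.92 and 3.43 CPM in psilocybin, 3.64, 2.1 and 3.89 CPM in MDMA, 0, 1.24 and 0 CPM in vehicle and 5.76, 1.25 and 0.444 CPM in unstressed libraries. Ccr8 overlapped between all groups, and Ccr9 was lower in vehicle than in psilocybin and MDMA libraries without overlap, with adjusted p-values of 0.284 for psilocybin and 0.249 for MDMA by edgeR. Cxcr4, the receptor for Cxcl12, had at most 12 counts in any library, beside a ligand with 374 to 4740. Cxcr3, the receptor for Cxcl9, Cxcl10 and Cxcl11, had 5.52 CPM in vehicle library 1 and 0 in the other vehicle libraries, and 3.08, 1.75 and 1.75 CPM in MDMA libraries. Ccr3, Ccr4, Ccr6, Ccr10 and Cxcr2 stayed at 7 counts or below, and Cxcr5 and Xcr1 at 13 or below. Cxcr1 and Ccr1l1 had none.

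Of the atypical receptors, Ackr1 transports inflammatory chemokines across venular endothelium and binds them on red cells. It had 29.6, 36.9 and 34.8 CPM in psilocybin, 19.9, 57 and 28.4 CPM in MDMA, 67.3, 24.8 and 0 CPM in vehicle and 5.76, 18.7 and 16 CPM in unstressed libraries. Psilocybin and MDMA libraries all lay above the unstressed ones, and vehicle libraries held both extremes of the 12. Sums of 9 endothelial and mural markers were 2285 to 4130 CPM in psilocybin, 3208 to 3757 CPM in MDMA, 2550 to 4033 CPM in vehicle and 2900 to 4446 CPM in unstressed libraries. Sums of 5 erythroid markers were 26.9, 4.61 and 168 CPM in psilocybin, 200, 17.5 and 67.2 CPM in MDMA, 30.4, 43.3 and 0.512 CPM in vehicle and 6.78, 9.73 and 2.66 CPM in unstressed libraries. The part of endothelial and red cells in Ackr1 was not tested. Ackr3, which scavenges Cxcl12, had 14.8, 3.84 and 2.45 CPM in psilocybin, 17.9, 7.69 and 0 CPM in MDMA, 0, 2.48 and 0.512 CPM in vehicle and 4.07, 1.75 and 0 CPM in unstressed libraries, and its groups overlapped. Ackr2 was counted in the 3 MDMA libraries alone, with 3, 1 and 3 reads, and Ackr4 was at 0 in vehicle libraries.

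In all, 20 members had counts but did not pass the filter, with at most 38 counts in a library, and 9 matched members had none. These 9 were Ccl19, Ccl20, Ccl21a, Ccl21b, Ccl27b, Cxcl3, Cxcl15, Cxcr1 and Ccr1l1. Ccl19, Ccl21a, Ccl21b, Ccl27a and Ccl27b have near-identical copies in the mouse genome, so their counts are uncertain.

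For vehicle against unstressed, which asks what restraint stress did, 11 members were lower in every vehicle library than in every unstressed library and 0 were higher. Among them were the receptors Ccr1, Ccr7, Cxcr2 and Cxcr6 and the ligands Ccl4, Ccl12, Ccl24, Cxcl9, Cxcl14 and Cxcl16. Of these, Ccl24 and Cxcr2 did not pass the count filter, with bounds against the floor of 2.9-fold and 1.61-fold. Over all matched genes 10.8% were lower and 1.42% higher without overlap. None of the 30 tested members passed with edgeR at an adjusted p of 0.05, where 3.35% of all tested genes did, and 9 members were below an unadjusted p of 0.05, against 18.5% of all tested genes. DESeq2 called 5 (12.5% of all tested genes), among them Ccr1, Ccr7, Cxcl14 and Cxcr6, and limma voom called 1 (10.1%), Cxcl14. The median fitted log2 difference was -0.429 over the tested members and -0.181 over all tested genes. Both annotations gave nearly the same exons for 7 of the 11. Without vehicle library 2, 9 members passed, where 25.3% of all tested genes did, and without vehicle library 3 only Cxcl1 passed, as higher, where 6.66% of tested genes did.

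Psilocybin against vehicle, which asks what the drug did after stress, left 14 members higher in every psilocybin library and 0 lower, against 14.7% and 1.33% of all matched genes. The higher ones held the receptors Ccr1, Ccr7, Ccr9, Cxcr2, Cxcr5, Cxcr6 and Xcr1, the atypical receptor Ackr4 and the ligands Ccl4, Ccl5, Ccl11, Ccl28 and Cxcl14. Of these, Ackr4, Ccl28, Cxcr2, Cxcr5 and Xcr1 did not pass the count filter and had no vehicle count. Their bounds against the floor ran from 1.66-fold (Ccl28 and Cxcr2) to 3.31-fold (Ackr4). No member passed with edgeR, where 0.0143% of tested genes did, and 7 had an unadjusted p below 0.05, against 15.9% of tested genes. DESeq2 called 4 members (7.58% of tested genes), Ccl4, Ccr1, Ccr7 and Cxcl14, and limma voom Cxcl14 alone (3.14%). Members' differences had a median log2 value of 1.27, against 0.308 for all tested genes. Without vehicle library 2, 9 members passed, where 24.5% of tested genes did.

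MDMA against vehicle gave 17 members higher in every MDMA library and 0 lower, against 11.3% and 0.95% of all matched genes. They were the receptors Ccr1, Ccr6, Ccr7, Ccr9, Cxcr5, Cxcr6 and Xcr1, the atypical receptor Ackr2 and the ligands Ccl4, Ccl12, Ccl22, Ccl24, Ccl28, Cxcl5, Cxcl9, Cxcl14 and Cxcl16. Of these, Ackr2, Ccl24, Ccl28, Ccr6, Cxcl5, Cxcr5 and Xcr1 did not pass the count filter and had no vehicle count. Their bounds against the floor ran from 1.06-fold (Ackr2) to 4.1-fold (Ccl28). With edgeR no member passed, where 0.667% of tested genes did, and 11 members were below an unadjusted p of 0.05, against 16.7% of tested genes. DESeq2 called 7 members (9.57% of tested genes), Ccl4, Ccl12, Ccr1, Ccr7, Cxcl9, Cxcl14 and Cxcr6, and limma voom called 3 (6.38%), Ccl4, Ccr1 and Cxcl14. The median was 1.51 over the members and 0.24 over all tested genes. Without vehicle library 2, 12 members passed, where 25% of tested genes did, and without a filter on low counts Ccr1 passed, where 0.478% did. With Ccr1, Ccl12 and Ccl22, which had no vehicle count, set to their bounds, the members' medians in the 3 comparisons with vehicle libraries were the same. A median cannot move while such values stay on their side of it, so this was no check of the medians. MDMA against vehicle, psilocybin against vehicle and vehicle against unstressed share the vehicle libraries, so they are not independent of one another.

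**Figure D5:**
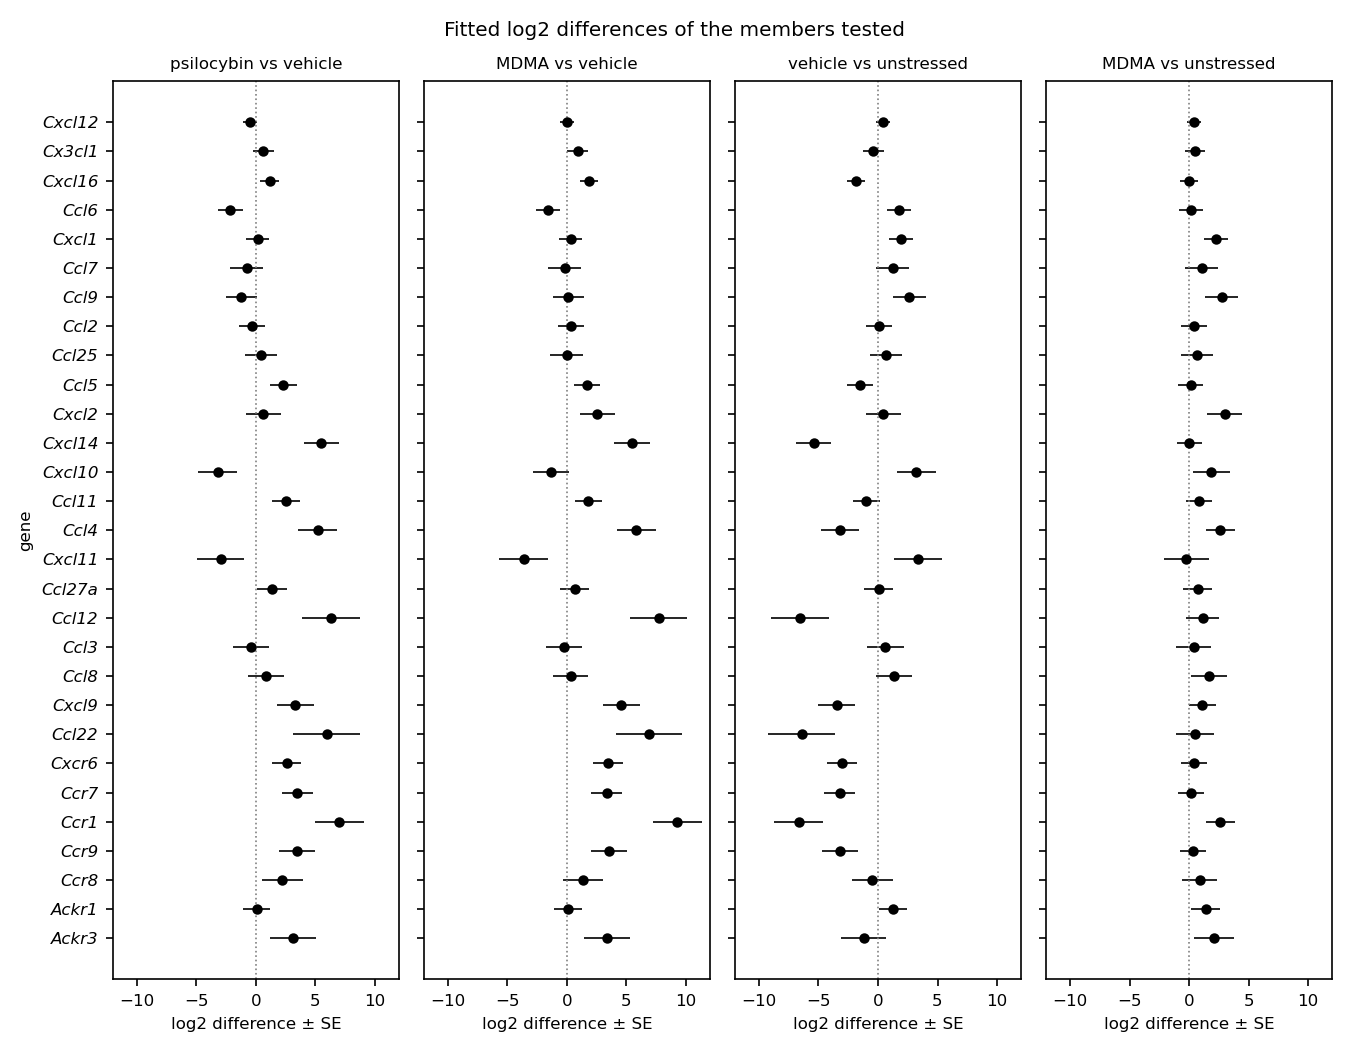
Fitted log2 differences with SE of 29 tested members in 4 comparisons, with points right of 0 where the first-named group was higher. The largest differences belong to genes such as Ccr1, Ccl12 and Ccl22 with no count in vehicle libraries, whose fitted values depend on the prior count and are no bounds.

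Psilocybin and MDMA were given to stressed mice and sampled at the same time, and no member passed a test of the difference between them. Ccl1, Ccl25 and Ccl27a were higher and Ackr2, Ccr1, Cxcl2, Cxcl10 and Cxcl16 lower in every psilocybin library than in every MDMA library, 3 and 5 members, or 5.08% and 8.47%, against the 4.77% and 4.65% of all matched genes. Ccl1 and Ackr2 did not pass the count filter. The mean level of Ccr1 was 4.92 ± 4.68 CPM in psilocybin and 24.3 ± 4.93 CPM in MDMA libraries, and that of Cxcl2 was 6.95 ± 2.79 CPM in psilocybin and 26.2 ± 16.2 CPM in MDMA libraries (SD, n = 3 each). No tested member passed with edgeR, DESeq2 or limma voom, where 0% of tested genes passed with each, and 0 members were below an unadjusted p of 0.05 with edgeR, against 0.588% of tested genes. The median difference was -0.365 over the members and 0.0187 over all tested genes.

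Against unstressed mice, 5 members were higher in every psilocybin library, Ackr1, Ccl11, Ccl25, Ccl27a and Cxcl1, and 1, Ccl24, was lower, against 10.9% and 10.1% of all matched genes. In MDMA libraries 12 were higher, Ackr1, Ackr2, Ccl4, Ccl9, Ccl25, Ccr1, Ccr6, Cxcl1, Cxcl2, Cxcl5, Cxcl13 and Cxcr3, and 0 lower, against 6.94% and 6.2%. Of the members named for both drugs, Ackr2, Ccl24, Ccr6, Cxcl5, Cxcl13 and Cxcr3 did not pass the count filter. Both annotations gave nearly the same exons for 1 of the 5 higher in psilocybin, and Ccl25, Ccl27a and Cxcl1 had over 1.5 times more exonic bases in Ensembl. They gave nearly the same exons for 5 of the 12 higher in MDMA, and Ccl25, Cxcl1 and Cxcl2 had over 1.5 times more exonic bases in Ensembl. No member passed with edgeR, where 0.0789% of tested genes did in each comparison, nor with DESeq2 (1.73% for psilocybin and 1.56% for MDMA) or limma voom (0.839% and 1.02%). Below an unadjusted p of 0.05 were 0 members for psilocybin, against 6.33% of tested genes, and 2 for MDMA, Cxcl1 and Ccl4, against 4.97%. Of 30 tested members 27 had a positive fitted difference for MDMA and 20 for psilocybin, where 51.8% and 50.6% of all tested genes did, with medians of 0.687 and 0.307 over the members. In a fit of only the 6 psilocybin and unstressed libraries Cxcl1 passed, where 10.3% of tested genes did. Asked for any difference among the 4 groups, edgeR called no member (0.43% of tested genes), with 4 below an unadjusted p of 0.05 (14.3%), and DESeq2 called Ccl4, Ccr1 and Cxcl14 (10.2%) and limma voom Ccr1 and Cxcl14 (5.92%). Without vehicle library 2, edgeR called 4 members in that test, where 17.1% of tested genes passed.

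Beyond the symbol rule, 36 genes of chemokine signalling were followed, all of them tested, and 1 of them fell in vehicle against unstressed and rose in MDMA against vehicle, where 3.35% and 0.667% of all tested genes were called. It was Arrb1, which encodes beta-arrestin 1, a protein that uncouples and internalises chemokine receptors (GRCm38, chromosome 7, 99535466 to 99606771, plus strand). Arrb1 had 13.9, 20.8 and 17.9 CPM in psilocybin, 25.8, 16.4 and 27.1 CPM in MDMA, 0, 0 and 0.512 CPM in vehicle and 41.4, 38.7 and 35.1 CPM in unstressed libraries. Vehicle libraries, with 1 read among them, lay below all others, and unstressed libraries above. Pooled counts gave a ratio of 126 for MDMA over vehicle (95% exact interval 22.5 to 5014) and 210 for unstressed over vehicle (37.5 to 8310), with adjusted p-values of 0.0466 and 0.0221 by edgeR. For psilocybin over vehicle the ratio was 96.1 (17 to 3816), and its adjusted p of 0.0689 by edgeR did not pass. The fitted log2 difference of psilocybin against MDMA was -0.33 ± 0.85 (SE), so the rise was not particular to MDMA. The call of MDMA against vehicle held in 6 of 16 alternatives, with adjusted p-values from 2.55e-05 to 0.845, and that of vehicle against unstressed in 9 of 15, from 5.84e-07 to 0.7. With the replicate number as a block the adjusted p-values were 0.15 for MDMA against vehicle and 0.0886 for vehicle against unstressed. The second call was lost without any 1 of the 3 unstressed libraries (adjusted p 0.0773 to 0.0907), and the first without any 1 of the 3 MDMA libraries (0.088 to 0.111) or without vehicle library 1 (0.0658). No other gene of the list passed in any comparison, and its median difference was 0.377 in MDMA and 0.301 in psilocybin against vehicle and -0.314 in vehicle against unstressed.

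Receptors and ligands on that list followed the vehicle pattern in part. Cx3cr1, the receptor for Cx3cl1 on monocytes and macrophages, had 4.74, 3.46 and 8.09 CPM in psilocybin, 55.8, 2.45 and 15.4 CPM in MDMA, 0, 1.24 and 0 CPM in vehicle and 0, 16.5 and 7.99 CPM in unstressed libraries. Cx3cr1 was highest in MDMA library 1 and near 0 in vehicle libraries. Of the microglia markers, which mark another cell with Cx3cr1, P2ry12 and Gpr34 were at 74.9 and 25 CPM in MDMA library 1 and at 0 in all vehicle libraries. Sums of 6 microglia markers were 164 to 231 CPM in psilocybin, 209 to 437 CPM in MDMA, 86.5 to 300 CPM in vehicle and 159 to 248 CPM in unstressed libraries, and their part in Cx3cr1 was not tested. The platelet chemokines Pf4 and Ppbp reached 42.7 and 122 CPM in psilocybin library 3, and Ppbp had no count in vehicle libraries. Ccrl2, which presents chemerin, had 20.1, 8.07 and 29.7 CPM in psilocybin, 35, 8.04 and 32.1 CPM in MDMA, 0, 13.6 and 0.512 CPM in vehicle and 26.8, 32.9 and 24.2 CPM in unstressed libraries. Chemerin itself, encoded by Rarres2, overlapped between groups, at 37.9 ± 13.8 CPM in psilocybin, 28.4 ± 13.5 CPM in MDMA, 48.4 ± 35.4 CPM in vehicle and 49.4 ± 4.25 CPM in unstressed libraries (SD, n = 3 each). Rgs1, which dampens chemokine receptor signalling, averaged 27.6 ± 6.76 CPM in MDMA and 5.33 ± 4.65 CPM in vehicle libraries, without overlap, and its adjusted p was 0.364 by edgeR.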

How the data were processed

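The authors deposited raw read counts per gene for all 12 libraries, in whole numbers and without scaling. Per the labels' protocols, cells came from a magnetic monocyte isolation kit and libraries from 5 ng of RNA. Per the submitters' processing notes, the build was mm10 and the tools were STAR 2.7.5c, featureCounts 2.0.1, fastp 0.23.2, edgeR 3.42.4, MultiQC 1.11 and FastQC 0.11.9. Per the file headers, unstressed libraries were counted by featureCounts over RefSeq exons. Stressed libraries carried Ensembl identifiers, of an annotation release that no source used here gives. In the table of the whole series, 3 columns belong to no sample of this report and were left aside. Strand use is not recorded, so reads of antisense genes cannot be told apart.

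Of 55401 Ensembl identifiers, 55141 had a symbol in GENCODE vM21, and 27575 genes were matched to RefSeq genes, 26665 by symbol and 910 by position, holding 94.8% to 99.09% of each library's counts. Nearly the same exons means a Jaccard index of at least 0.9 and lengths within 1.1 times. Ccl21c was in RefSeq alone. CPM use unscaled file totals. Tests were edgeR 4.0.16 quasi-likelihood fits in R 4.3.3 over all 12 libraries with TMM scaling, filterByExpr and Benjamini-Hochberg adjustment over 13944 genes at 0.05, in 6 pairwise comparisons and 1 test of any difference. Scripts were tested on simulated data. Bounds use 3 counts over a group and TMM-scaled library sizes. Alternatives were DESeq2 1.42.0, DESeq2's size factors, limma 3.58.1 voom, voom with sample quality weights (added after seeing the data), other filters, a replicate block, leaving out each library, only the 6 libraries compared, genes of nearly the same exons, all Ensembl genes in the stressed libraries, and vehicle library 2 alone.

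Groups and replicate numbers came from sample titles. Members, lists and alternatives were chosen with earlier results of these data known. Members with a mean of at least 5 CPM in a group were named with all values, besides those with the smallest p in a comparison; other members named were chosen after their values were seen. Shifts of same-numbered psilocybin and vehicle libraries within their groups had weak positive correlations (across genes, r was 0.112, 0.213 and 0.115). In other comparisons at least 1 same-numbered pair's correlation was below 0.1, with 0.225, 0.0242 and 0.214 for psilocybin against MDMA. Pairs of different numbers were not set beside these values, so they cannot decide whether the number pairs libraries. Its meaning is unknown. The main fits used no replicate block, which was an alternative only. Motifs were searched in RefSeq promoters of GRCm38.p6. Values of 1 member are not reported here, although it enters the counts and sums.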

Additional observations from a re-analysis of the deposited data

How the results depend on the processing

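The number of members past the threshold, 0 with edgeR in each of 7 tests, was also 0 in 99 of 117 alternative fits. It was 5, 4, 7 and 3 with DESeq2 in vehicle against unstressed, psilocybin against vehicle, MDMA against vehicle and the test of any difference, and 1, 1, 3 and 2 with limma voom. With sample quality weights, an alternative chosen after seeing the data, it was 1 in psilocybin against unstressed, 3 in MDMA against unstressed and 3 in the test of any difference. Without a filter it was 1 in MDMA against vehicle, and in a fit of only the 6 libraries 1 in psilocybin against unstressed. Leaving out each library in turn, it ranged from 0 to 9 in vehicle against unstressed, 0 to 9 in psilocybin against vehicle, 0 to 12 in MDMA against vehicle and 0 to 4 in any difference, with the highest values without vehicle library 2, and the cause was not tested. With the replicate number as a block it was 0 in all 7 tests, although whether the number pairs libraries is not known. Over all tested genes, calls in vehicle against unstressed ranged from 0 to 3662 (467 in the report), in psilocybin against vehicle from 0 to 3535 (2, and 0 with the block), in MDMA against vehicle from 0 to 3614 (93), in psilocybin against MDMA from 0 to 1 (0), in psilocybin against unstressed from 0 to 2735 (11), in MDMA against unstressed from 0 to 1081 (11) and in any difference from 0 to 2475 (60). For 18 differences, those of the members with the smallest p in each comparison, 273 alternative values were computed, of which 248 kept their side of the threshold, 25 passed it and 0 changed sign. With TMM-scaled library sizes, all 108 group means of named members moved by less than 1 SD. Depth limits the rarest members most, since 3 counts are worth 3.71 CPM in vehicle library 2.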

Other observations

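Several members below the count filter were also missing from vehicle libraries, and they were chosen here after their values were seen. Ccl28, a mucosal ligand of Ccr10, had counts of 3, 3 and 3 in psilocybin, 4, 19 and 4 in MDMA, 0, 0 and 0 in vehicle and 0, 12 and 0 in unstressed libraries. Ackr4, which scavenges Ccl19, Ccl21 and Ccl25, had 4, 7 and 7 counts in psilocybin, 12, 0 and 11 in MDMA, 0, 0 and 0 in vehicle and 0, 4 and 9 in unstressed libraries. Ccl24, a ligand of Ccr3, had 0, 0 and 2 counts in psilocybin, 7, 2 and 2 in MDMA, 0, 0 and 0 in vehicle and 2, 6 and 10 in unstressed libraries. Ccl17, a ligand of Ccr4, was concentrated in 1 library, with 0, 0 and 21 counts in psilocybin, 2, 0 and 3 in MDMA, 0, 0 and 0 in vehicle and 0, 1 and 0 in unstressed libraries. Psilocybin library 3 was also the highest of the 12 in the platelet chemokine Ppbp, at 122 CPM.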
